A study of Mus musculus with 2 samples.

Results

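Ribosomal protein genes encode the protein subunits of the ribosomes of the cytosol and of the mitochondrion. They were chosen by gene symbol: *Rpl* or *Rps* with a number, *Rplp* with a number and *Rpsa* for the cytosolic ribosome, and *Mrpl* or *Mrps* with a number for the mitochondrial ribosome, without pseudogenes or the kinases that phosphorylate *Rps6* protein. Of 19505 genes measured, 137 met this rule, 61 of them cytosolic and 76 mitochondrial. A further 24 protein-coding symbols of the RefSeq annotation match the rule (22 cytosolic and 2 mitochondrial) but lacked a probe set of that single symbol and were not analysed here. No measured value entered the rule.

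The RNA came from gastric organoids, which are epithelial cultures grown in Matrigel from the stomach. One sample was of organoids from aged mice (more than 18 months of age) and the other of organoids from young mice (2 to 4 months of age). The paper's general medium for these organoids was WRC+, with EGF, Noggin, Wnt3a, R-Spondin1, FGF10, Chir99021, valproic acid, Y-27632 and SB431542. Its account of the arrays does not name the medium. Total RNA was hybridized to Clariom S mouse arrays, 1 array for aged and 1 for young organoids, and whether an array held RNA of 1 mouse or of several is not stated in the labels.

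The cytosolic ribosome translates messages from the nucleus. It has a small subunit, which reads the message, and a large subunit, which joins amino acids, and nearly every protein in it is made from a single gene that most cells express strongly. In vertebrates these messages begin with a run of pyrimidines, the 5′ terminal oligopyrimidine (5′ TOP) motif, through which the kinase mTOR and the RNA-binding protein Larp1 govern their translation together. The mitochondrial ribosome descends from a bacterial ribosome and makes the few respiratory chain proteins that mitochondrial DNA encodes. Its proteins are all imported from the cytosol. Gastric epithelium needs both, since its gland cells secrete protein and acid and its progenitors divide.

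Letters near the annotated transcription starts differed between the classes of genes. RefSeq promoters (GRCm38.p6, 250 bases before to 50 after each start) were given for 116 members, 49 cytosolic and 67 mitochondrial. A pyrimidine run, taken as a C followed by at least 5 C or T bases and beginning within 20 bases either side of the start on the transcribed strand, was found for 65.3% of cytosolic members, 41.8% of mitochondrial members and 35.7% of all 17491 protein-coding genes. The windows are shown for members whose signals are described further on, from 20 bases before the start to 10 from it, with such runs in capitals.
Rps6, chr4:86857358-86857387, minus strand: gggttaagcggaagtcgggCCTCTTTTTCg
Rps27l, first of 2 starts, chr9:66946066-66946095, plus strand: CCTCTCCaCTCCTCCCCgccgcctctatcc
Rps7, chr12:28635944-28635973, minus strand: gaagagcttccggtttccacccacctactt
Rpl36al, chr12:69184058-69184087, minus strand: gttcgcattcccgtcgctcaggttcagttc
Mrps21, chr3:95871505-95871534, minus strand: gcgtagCTTCCTCCCgtcgcgggactccgt
Mrpl34, chr8:71464906-71464935, plus strand: aacaagaactacatttcccagaaggcattg
Mrpl16, chr19:11770395-11770424, plus strand: gccggcaaagctctgaactgggaaaagcca
Mrpl23, chr7:142533012-142533041, plus strand: gggtgcggggttgggggtggggtggggttt

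In *Rps6* the run spans the annotated start. *Rps7* and *Rpl36al* had no run by this definition. *Rps7* has short pyrimidine stretches broken by a single A, and an annotated start need not be the base at which transcription begins in these cells.

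Of 5 short motifs searched on both strands, the ETS motif CCGGAAG was frequent in both classes of ribosomal protein genes. It was in the promoters of 42.9% of cytosolic members (21 of 49) and 37.3% of mitochondrial members (25 of 67), against 12.9% of all protein-coding genes. The match lay between 100 bases before and 50 after the start in 18 of those 21 and in 22 of those 25. How often it lay there among all genes with a match was not computed. Among members that differed between the arrays, *Rpl36al*, *Mrpl23* and *Mrpl16* had no match, and *Mrpl48* had one only at the last of its 4 starts. The match is capitalised here in some differing members that had one and, for comparison, in *Rps6*.
Rps7, chr12:28635951-28635977, minus strand: ttcagaagagCTTCCGGtttccaccca
Rps6, chr4:86857442-86857468, minus strand: taatctacgcCCGGAAGtaacgcccct
Rps27l, chr9:66946085-66946111, plus strand: cgcctctatcCCGGAAGttgctgaggg
Mrpl34, chr8:71464879-71464905, plus strand: actacagctcCCGGAAGgccccgcggc
Mrps21, chr3:95871480-95871506, minus strand: gtagcttccgCTTCCGGtccgcagaga

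The match began 14 bases before the start in *Rps7*, 91 before it in *Rps6* and 37 before it in *Mrpl34*, and 9 bases after the start in *Rps27l* and 18 after it in *Mrps21*. The YY1 motif AAGATGGC was in 6.12% of cytosolic and 17.9% of mitochondrial members, against 3.57% of all genes. The NRF1 motif GCGCATGCG was in 6.12% of cytosolic and 10.4% of mitochondrial members, against 2.61%. The Sp1 motif GGGCGG (57.1% and 49.3%, against 49.2%) and the E-box CACGTG (8.16% and 7.46%, against 8.91%) were about as frequent as in all genes. Matches of different motifs shared bases in 2 members, an ETS and an Sp1 match in each. A match describes letters and not binding.

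**Figure D1:**
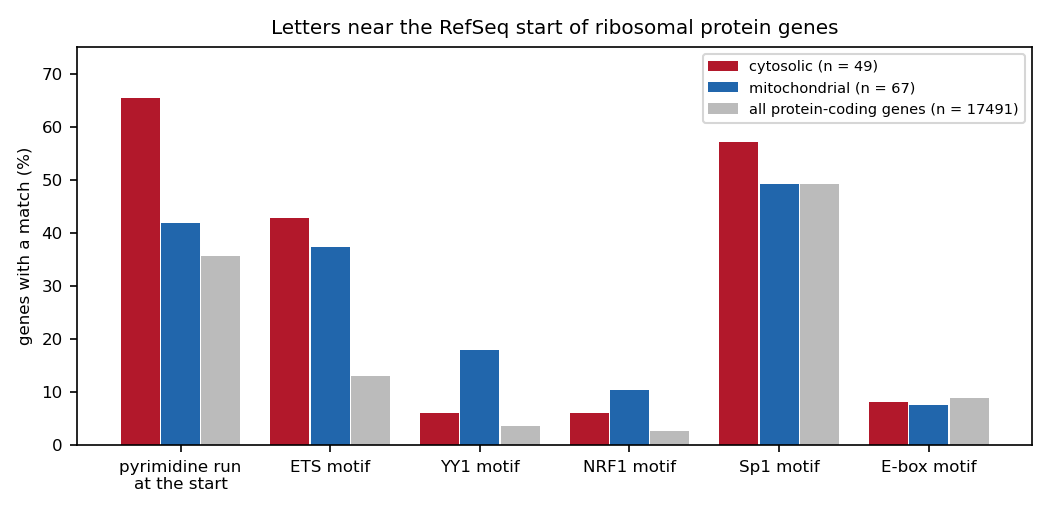
Share of genes (%, vertical axis) with a pyrimidine run at the RefSeq start or with each of 5 short motifs in the promoter, for cytosolic members (n = 49), mitochondrial members (n = 67) and all protein-coding genes (n = 17491). The ETS bars of both classes stand far above that of all genes, and the pyrimidine run bar does so for the cytosolic class (65.3% against 35.7%).

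Members with and without these letters were set side by side by their difference between the arrays. A difference here is always the log2 signal of the aged array less that of the young array, so that 1 is 2-fold higher in aged organoids. The 31 cytosolic members with a pyrimidine run and a signal above background had a median difference of 0.14 and the 15 without one 0.25. Among mitochondrial members the medians were −0.14 with a run (28 genes) and 0.08 without (39 genes). With an ETS match they were 0.21 in cytosolic members (20 genes) and −0.05 in mitochondrial members (25 genes), and without one 0.15 (26 genes) and 0.08 (42 genes).

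Olfactory and vomeronasal receptor genes (1412), not expected in a stomach culture, gave the background. Its limit, exceeded by 5 in 100 of them, was 5.54 on the aged and 5.36 on the young array, and 11558 genes were above it on at least 1 array. The SD of the differences among receptor genes was 0.51, which measures the spread at dim signals only. Both arrays had the signals of an epithelium, with 8 of 8 epithelial markers above background, 0 of 4 leukocyte, 0 of 4 endothelial, 0 of 4 testis and 1 of 4 striated muscle markers (*Ckm*, 6.34 on the aged and 6.20 on the young array), and 1 of 7 fibroblast and smooth muscle markers (*Col1a1*, 6.15 and 5.92 in the same order). *Vim*, a mesenchymal marker outside these lists, was above background too, at 9.48 on the aged and 6.75 on the young array. With 1 array per group no difference was tested, and age cannot be told apart from anything else in which these 2 samples differed. The arrays had been normalized to each other, so a change of all messages together would not show, and fewer cells of a type cannot be told apart from less RNA per cell.

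Cytosolic ribosomal protein genes were slightly higher in aged organoids as a group. Of 61 measured, 58 were above background, and of these 47 were higher in aged organoids and 11 lower, a share of 81.0% higher against 50.1% of all genes above background. Their median difference was 0.20, with quartiles of 0.09 and 0.40, against a median of 0.00 and quartiles of −0.48 and 0.51 for all genes. Most differences were small. Within 1.5-fold were 50 of the 58 (86.2%), 7 were at least 1.5-fold higher (against 22.4% of all genes) and 1 was at least 1.5-fold lower (against 21.2%). At least 2-fold higher was 1 member, *Rpl36al* (against 11.3% of all genes), and at least 2-fold lower was 1, *Rps27l* (against 11.8%). These messages gave high signals, and genes as bright set a closer background. Of 353 other genes at or above the lowest quartile of the signals of the class, 44.8% were higher in aged organoids and 33.1% were at least 1.5-fold apart, and their median was −0.05. The 43 cytosolic members in that range had a median of 0.19, with 36 higher and 5 at least 1.5-fold apart.

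Mitochondrial ribosomal protein genes did not share a direction. Of 76 measured, 75 were above background, and 40 were higher in aged organoids (53.3%, against 50.1% of all genes) and 35 lower. The median difference was 0.05, with quartiles of −0.33 and 0.29. At least 2-fold higher were *Mrpl23* and *Mrpl48* (against 11.3% of all genes), and at least 2-fold lower were *Mrpl34* and *Mrpl16* (against 11.8%). At least 1.5-fold higher were 9 members (against 22.4%) and at least 1.5-fold lower 6 (against 21.2%). The other 60 (80.0%) were within 1.5-fold, against 56.3% of all genes. Of 5420 other genes at or above the lowest quartile of their signals, 47.6% were higher in aged organoids and 40.6% were at least 1.5-fold apart. The 56 mitochondrial members in that range had 29 higher and 12 at least 1.5-fold apart, 6 each way. The gap between the quartiles was 0.31 for cytosolic members, 0.62 for mitochondrial members and 0.99 for all genes, and how far signal strength sets it was not tested.

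**Figure D2:**
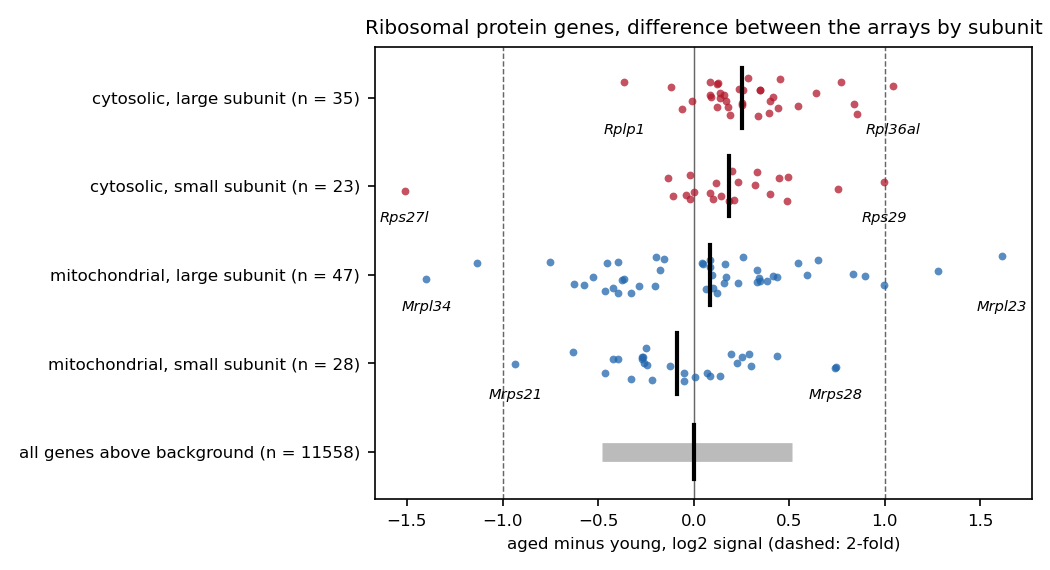
Difference between the arrays (horizontal axis, aged minus young, log2 signal) of each member above background, by ribosome and subunit, with black bars at the medians and the lowest and highest member named. The gray bar spans the quartiles of all 11558 genes above background. Cytosolic members cluster just right of 0 with *Rps27l* far to the left, and mitochondrial members spread to both sides.

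The large subunit of the cytosolic ribosome carries the peptidyl transferase center and the stalk that recruits translation factors. Of its 35 genes above background 31 were higher in aged organoids (88.6%, against 50.1% of all genes), with a median of 0.25. *Rpl5* and *Rpl11* encode the proteins that bring 5S ribosomal RNA into the subunit and that, when free, bind the p53 inhibitor Mdm2. *Rpl5* was at 17.07 on the aged and 16.43 on the young array (0.64), and *Rpl11* at 15.67 on the aged and 15.33 on the young array (0.35). *Rpl23*, whose product also binds Mdm2, was at 18.07 on the aged and 17.74 on the young array (0.33).

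The stalk is built on *Rplp0* protein, to which copies of the acidic protein of *Rplp1* attach. *Rplp0* was nearly level, at 15.59 on the aged and 15.50 on the young array. *Rplp1* was at 17.50 on the aged and 17.87 on the young array, a difference of −0.36, the lowest in the large subunit. The next lowest were *Rpl28* (17.98 on the aged and 18.09 on the young array, −0.12) and *Rpl19* (17.10 and 17.16 in the same order, −0.06).

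The highest differences in the large subunit were those of *Rpl36al* (12.46 on the aged and 11.42 on the young array, 1.04 or 2.06-fold), *Rpl9* (15.64 and 14.78 in the same order, 0.86), *Rpl32l* (13.27 and 12.43, 0.84) and *Rpl32* (17.45 and 16.68, 0.77). *Rpl32l* is a copy of *Rpl32* by name, and the arrays may not tell their messages apart, as with any ribosomal protein gene that has processed copies in the genome. The similar differences of the pair may therefore not be independent.

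The small subunit binds the message and holds the decoding center. Of its 23 genes 16 were higher in aged organoids (69.6%, against 50.1% of all genes), with a median of 0.18. *Rps6*, whose protein is the substrate of the S6 kinases downstream of mTOR, was at 18.27 on the aged and 18.15 on the young array (0.12). *Rpsa*, which encodes a small subunit protein also described as a laminin receptor, was at 14.91 on the aged and 14.50 on the young array (0.40). *Rps19* and *Rps14*, whose human counterparts are lost or mutated in inherited and acquired anemias, differed by 0.20 (12.92 on the aged and 12.73 on the young array) and 0.33 (14.30 and 13.96 in the same order).

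*Rps29* and *Rps7* were the highest in the small subunit. *Rps29* was at 17.22 on the aged and 16.22 on the young array, a difference of 0.998 that fell just short of 2-fold. *Rps7* was at 17.63 on the aged and 16.88 on the young array (0.76). At the low end, *Rps26* (15.49 on the aged and 15.63 on the young array) and *Rps28* (14.27 on the aged and 14.38 on the young array) differed by −0.13 and −0.11.

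*Rps27l* stood apart from every other cytosolic member. It encodes a variant of the small subunit protein Rps27 and is known as a transcriptional target of p53. Its signal was 12.32 on the aged and 13.84 on the young array, a difference of −1.51 or 2.85-fold lower in aged organoids. The next lowest member differed by −0.36.

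**Figure D3:**
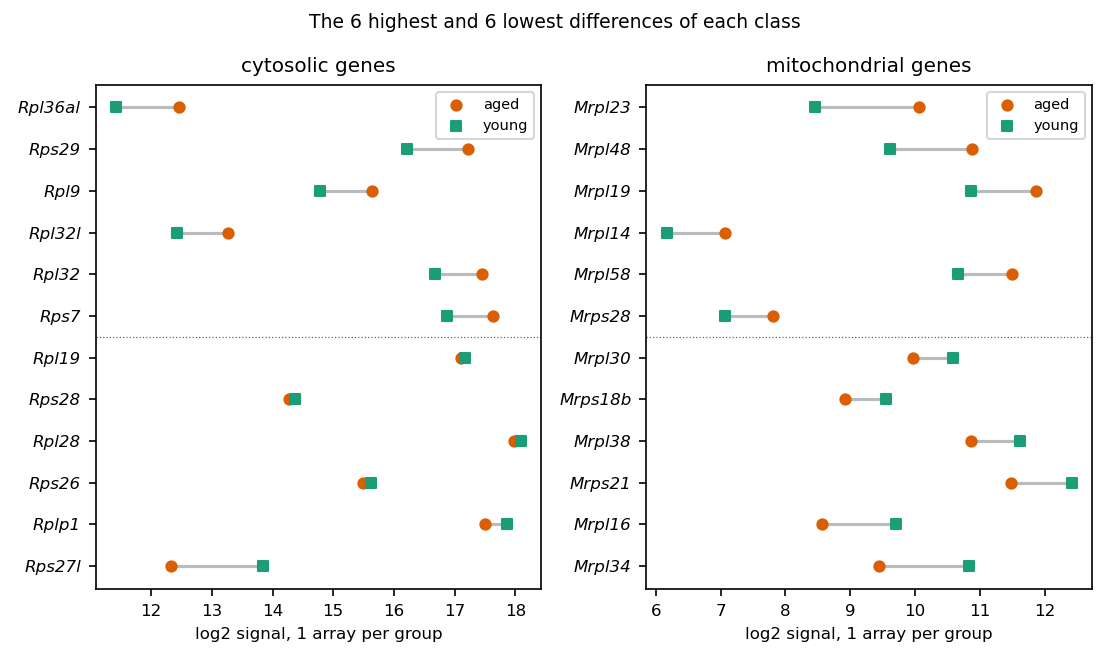
Log2 signal (horizontal axis) on the aged array (circles) and the young array (squares) of the 6 members with the highest and the 6 with the lowest difference in each class, ordered from highest to lowest. In the cytosolic panel 5 of the lowest 6 pairs nearly touch and *Rps27l* is the exception, while all 12 mitochondrial pairs are clearly separated.

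Some ribosomal protein genes differed between the arrays unlike their paralogs, and *Rpl7* and *Rpl7l1* did so in opposite directions. *Rpl22l1*, whose message is repressed by Rpl22 protein in mice, was at 11.62 on the aged and 12.61 on the young array (−0.99), while *Rpl22* was at 16.36 on the aged and 16.28 on the young array (0.08, and −0.03 after quantile normalization). *Rpl7l1* differed by −0.50 (12.53 on the aged and 13.03 on the young array) and *Rpl7* by 0.39 (16.62 and 16.23 in the same order). *Rpl36a* of the X chromosome differed by 0.14 (15.28 on the aged and 15.14 on the young array), against 1.04 for its autosomal copy *Rpl36al*. *Rpl22l1* and *Rpl7l1* lie outside the symbol rule and were not counted among the 61.

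*Rps4l*, a copy of *Rps4x* on chromosome 6 that RefSeq lists as a transcribed pseudogene, was not counted either. Its signal was 5.05 on the aged array, under the background of 5.54, and 11.27 on the young array, so that aged organoids had at least 53.3-fold less of it. *Rps4x* itself was at 13.97 on the aged and 13.48 on the young array (0.49).

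The paralogs known from striated muscle and testis were not above background. *Rpl3l*, a muscle form of *Rpl3*, was at 4.12 on the aged and 4.41 on the young array. *Rpl10l*, a testis form, was at 5.034 on the aged and 4.997 on the young array, and *Rpl39l*, another, was at 3.93 and 3.51 in the same order. *Rpl3* (16.39 on the aged and 15.97 on the young array, 0.42) and *Rpl39* (15.29 and 14.74, 0.55) were higher in aged organoids.

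The mitochondrial large subunit had 47 genes above background, with a median of 0.08. Of these 28 were higher in aged organoids (59.6%, against 50.1% of all genes). *Mrpl23*, the counterpart of a bacterial protein at the exit of the peptide tunnel, was at 10.07 on the aged and 8.45 on the young array (1.61, 3.06-fold). *Mrpl48* was at 10.89 on the aged and 9.61 on the young array (1.28, 2.43-fold). *Mrpl19* (11.87 on the aged and 10.87 on the young array, 0.99) and *Mrpl14* (7.06 and 6.16, 0.90) came next, the last at a dim signal.

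*Mrpl58* encodes a peptidyl-tRNA hydrolase that frees stalled chains and also sits in the subunit. It was at 11.49 on the aged and 10.66 on the young array (0.83). *Mrpl12*, whose protein forms the stalk and binds mitochondrial RNA polymerase, was at 10.07 on the aged and 9.74 on the young array (0.33). *Mrpl41*, whose protein has also been described as a partner of Bcl-2, was at 7.32 on the aged and 6.99 on the young array (0.33).

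The lowest differences of the class were in the large subunit as well. *Mrpl34* was at 9.44 on the aged and 10.84 on the young array (−1.40, 2.64-fold lower), and *Mrpl16* at 8.57 on the aged and 9.70 on the young array (−1.13, 2.20-fold lower). Both have counterparts in the bacterial large subunit. *Mrpl38* (10.87 on the aged and 11.62 on the young array) and *Mrpl30* (9.97 and 10.59) were lower by less than 2-fold. *Mrpl44*, which has the fold of a ribonuclease, differed by −0.47 (8.69 on the aged and 9.16 on the young array), and *Mrpl18*, linked in human cells to import of 5S ribosomal RNA, by −0.18 (11.26 on the aged and 11.44 on the young array). Under background on both arrays was *Mrpl54*, at 4.73 on the aged and 5.17 on the young array.

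The mitochondrial small subunit had 28 genes above background. Of these 12 were higher in aged organoids (42.9%, against 50.1% of all genes) and 16 lower. None was at least 2-fold higher (against 11.3% of all genes) or lower (against 11.8%). The subunit had a median of −0.09. Its range ran from −0.93 for *Mrps21* (11.49 on the aged and 12.42 on the young array), the counterpart of a small bacterial protein, to 0.74 for *Mrps28* (7.81 on the aged and 7.06 on the young array). *Mrps15*, which has a bacterial counterpart, differed by 0.23 (7.90 on the aged and 7.67 on the young array). The paralogs *Mrps18a*, *Mrps18b* and *Mrps18c*, which are versions of a single bacterial protein, differed by 0.01 (8.85 on the aged and 8.84 on the young array), −0.63 (8.92 and 9.55) and 0.30 (10.56 and 10.26).

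Genes on chromosomes 6 and 12 had higher signals in aged organoids than genes elsewhere, and part of the cytosolic difference lay on them. All genes above background had a median of 0.68 on chromosome 6 (552 genes), 0.60 on chromosome 12 (409 genes) and −0.04 on the other chromosomes (10597 genes). Of all genes above background, 522 of 961 on this pair were at least 1.5-fold higher in aged organoids, against 2068 of 10597 elsewhere. Of the 7 cytosolic members at least 1.5-fold higher, 4 lay on this pair, *Rpl32* on chromosome 6 and *Rps7*, *Rps29* and *Rpl36al* on chromosome 12. These were the only cytosolic members above background on the pair, and they ranged from 0.76 to 1.04, with a median of 0.89. The other 3 were *Rpl5* and *Rpl9*, both on chromosome 5, and *Rpl32l* on chromosome 10. Among the 54 cytosolic members on other chromosomes, 43 were higher in aged organoids (79.6%, against 47.5% of all genes there), with a median of 0.19. None was at least 2-fold higher, against 1013 of the 10597 genes there. The median of the class was thus nearly as large without that pair. These members include *Rpl32l*, whose message the arrays may not tell apart from that of *Rpl32*.

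Mitochondrial members on chromosome 6 numbered 6 and ranged from −0.33 to 0.99, with a median of 0.19 and *Mrpl19* as the highest, and none lay on chromosome 12. The 69 on other chromosomes had a median of 0.04 and held all 4 members at least 2-fold apart, 2 higher and 2 lower. Of all 10597 genes above background there, 1013 were at least 2-fold higher and 1312 at least 2-fold lower. *Mrpl23* and *Mrpl48* both lay on chromosome 7, where all 870 genes above background had a median of −0.02. Copy number was not measured.

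**Figure D4:**
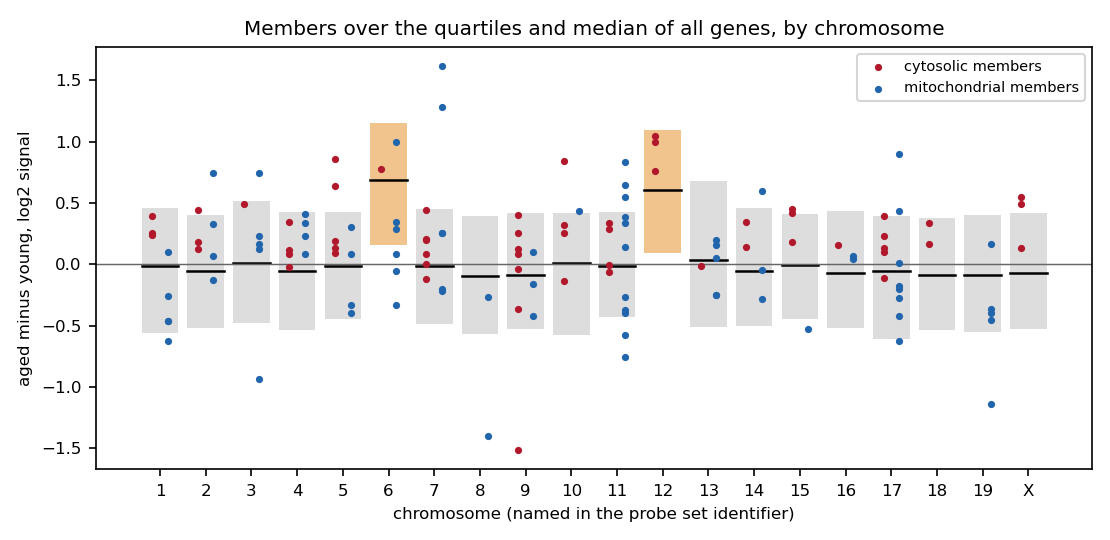
Difference of each member above background (vertical axis, aged minus young, log2 signal) by chromosome, over bars that span the quartiles of all genes there, with the median as a black line. Chromosomes 6 and 12 are in orange, with medians of 0.68 and 0.60. The 4 cytosolic members on them all lie at 0.76 or more. Of the 54 cytosolic members on other chromosomes 43 were higher in aged organoids (median 0.19), and mitochondrial members went both ways.

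Other proteins of the 2 ribosomes, or of genes named as their paralogs, were examined as lists under other symbols. Of 3 on the cytosolic list 1 was higher in aged organoids and 2 lower, with a median of −0.50. The lower ones were *Rpl22l1* and *Rpl7l1*, given above, and whether their proteins are part of the mature ribosome was not examined. *Fau*, whose product is cut into a ubiquitin-like part and the small subunit protein Rps30, was at 15.20 on the aged and 14.88 on the young array (0.32). All 4 further mitochondrial ribosome components were higher in aged organoids (against 50.1% of all genes), with a median of 0.51. They were *Dap3*, a GTP-binding protein of the small subunit (12.07 on the aged and 11.24 on the young array, 0.83), *Ptcd3*, an RNA-binding protein on chromosome 6 (11.56 and 10.97, 0.59), *Gadd45gip1* (6.62 and 6.20, 0.42) and *Chchd1* (6.83 and 6.48, 0.35). *Gadd45gip1* and *Chchd1* were dim, and their differences were under the SD of 0.51 among receptor genes. All genes above background on chromosome 6, where *Ptcd3* lies, had a median of 0.68.

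Ribosome production needs RNA polymerase I, which transcribes ribosomal RNA, and several sets of proteins that modify and fold it. Genes of RNA polymerase I and its initiation factors had a median of −0.05 over 16, with 2 at least 2-fold higher (against 11.3% of all genes) and 2 at least 2-fold lower (against 11.8%), shares near those of all genes. *Taf1b*, a subunit of the initiation factor SL1 on chromosome 12, was at 11.057 on the aged and 7.999 on the young array (3.06), and *Polr1a*, the largest subunit, on chromosome 6, at 11.37 on the aged and 10.31 on the young array (1.06). *Rrn3*, which ties the polymerase to growth signals, was at 10.77 on the aged and 12.30 on the young array (−1.53), and the subunit gene *Polr1e* at 9.64 on the aged and 11.19 on the young array (−1.54).

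Genes of small nucleolar particles and of enzymes that modify ribosomal RNA were higher in 16 of 21 cases (76.2%, against 50.1% of all genes), with a median of 0.33. Their highest were *Trmt112*, a cofactor of methyltransferases (14.42 on the aged and 13.11 on the young array, 1.31), and the RNA methyltransferase *Nsun5* (9.21 and 7.93, 1.28). The lowest was *Zcchc4*, a methyltransferase of the large ribosomal RNA (9.06 on the aged and 9.89 on the young array, −0.83). Some genes of the list, such as *Emg1* (0.82), lie on chromosome 6, where all genes above background had a median of 0.68.

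Of large subunit assembly factors 42 of 65 above background were lower and 23 higher (35.4%, against 50.1% of all genes), with a median of −0.17, which is the opposite direction from the large subunit proteins themselves. At least 1.5-fold lower were 18 (against 21.2% of all genes) and at least 1.5-fold higher 3 (against 22.4%). *Las1l*, an endonuclease of ribosomal RNA processing, was at 8.52 on the aged and 9.96 on the young array (−1.44), and *Noc3l* at 9.64 on the aged and 10.79 on the young array (−1.15). *Rrp1* was the highest (13.18 on the aged and 12.19 on the young array, 0.99), and the nucleolar protein genes *Ncl* and *Npm1* differed by 0.59 (14.33 on the aged and 13.74 on the young array) and −0.44 (16.22 and 16.66 in the same order). Small subunit assembly factors had a median of −0.05 over 45, from −1.14 for *Nol6* (10.10 on the aged and 11.24 on the young array) to 1.18 for *Ltv1* (11.04 and 9.86).

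Translation factors and other genes whose messages also carry a 5′ TOP had a median of 0.03. Within 1.5-fold were 20 of 22 (90.9%), against 56.3% of all genes and 66.9% of other genes as bright as the cytosolic members. The exceptions were *Nap1l1*, a histone chaperone (15.04 on the aged and 14.13 on the young array, 0.91), and the intermediate filament gene *Vim* (9.48 and 6.75, 2.73). *Eef1g*, an elongation factor subunit, differed by 0.57 (16.17 on the aged and 15.60 on the young array). Genes that control translation had a median of −0.02 over 26. *Larp1* was at 14.11 on the aged and 13.34 on the young array (0.78), and *Eif4ebp1*, an inhibitor of cap-dependent translation that mTOR inactivates, at 10.20 on the aged and 8.74 on the young array (1.47). *Sesn2*, a stress-induced inhibitor of mTOR complex 1, was at 5.98 on the aged and 8.17 on the young array (−2.19), *Eif2ak2*, the kinase PKR, at 10.92 and 12.50 (−1.58), and the mTOR partner *Rptor* at 7.53 and 8.55 (−1.03). Arrays measure messages and not their translation.

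Mitochondrial translation factors and tRNA synthetases had a median of −0.13 over 32 above background, 13 of them higher in aged organoids (40.6%, against 50.1% of all genes) and 19 lower. *Mrrf*, the ribosome recycling factor, was at 10.53 on the aged and 9.35 on the young array (1.18), *Guf1*, an elongation factor, at 9.80 and 8.66 (1.15), and *Oxa1l*, which inserts new chains into the inner membrane, at 15.35 and 14.36 (0.99). The leucyl-tRNA synthetase *Lars2* was lowest, at 8.38 on the aged and 9.45 on the young array (−1.07). The list of mitochondrial ribosome assembly genes also held genes of mitochondrial transcription, such as *Tfb2m*. It had a median of −0.17 over 37, with 14 higher (37.8%, against 50.1%) and 23 lower. *Mpv17l2*, an inner membrane protein, was at 9.81 on the aged and 11.17 on the young array (−1.36), and the mitochondrial transcription factor *Tfb2m* at 11.39 and 12.59 (−1.20). *Mterf3* was highest (10.62 on the aged and 9.52 on the young array, 1.10).

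**Figure D5:**
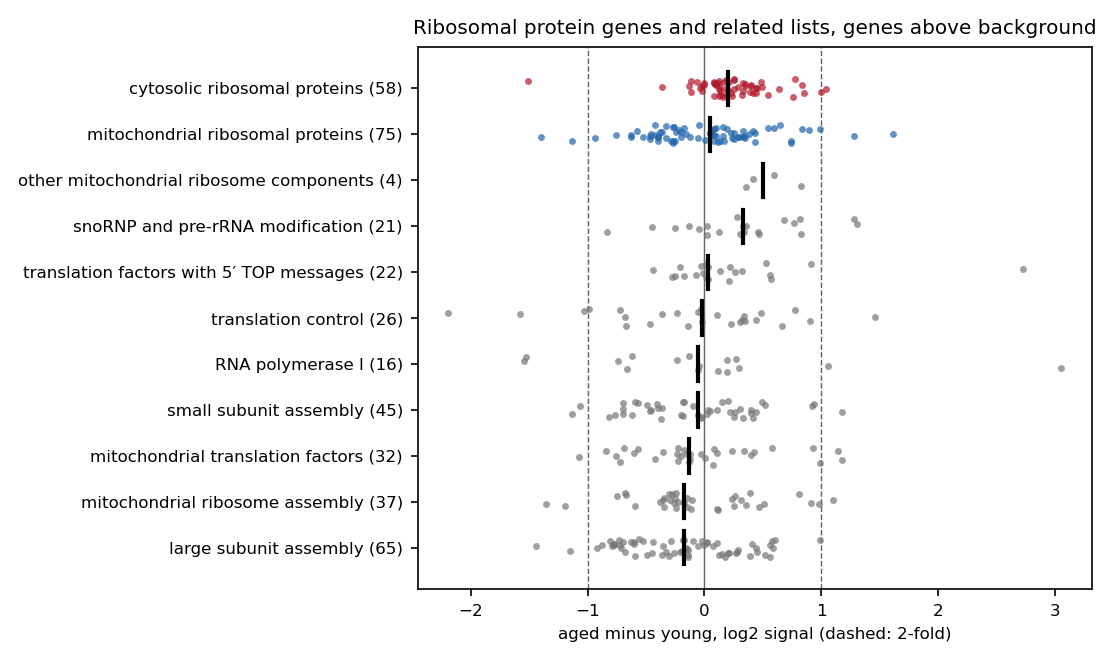
Difference (horizontal axis, aged minus young, log2 signal) of each gene above background in the cytosolic and mitochondrial classes and in 9 related lists, with the number of genes in parentheses and black bars at the medians. The cytosolic class and the list of small nucleolar particles lie right of 0 (0.20 and 0.33), and large subunit assembly lies left of it (−0.17).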

How the data were processed

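Total RNA of gastric organoids was measured on Clariom S arrays, 1 for aged and 1 for young mice. The authors deposited log2 signals per probe set, for which the submitters' processing notes name RMA and Affymetrix Power Tools, with versions not given in the sources used here. Base 2 is assumed, as is usual for RMA. Signals reached 19.86 on both arrays, above the ceiling of 16 that a 16-bit scanner gives on that scale, and how this arose is not given in the sources used here. The genome build of the probe sets is not named, so chromosomes were read from their identifiers.

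Probe sets with 1 gene symbol (19572 of 22206) were kept, and 55 genes with several were averaged. No member had more than 1. No further normalization was applied. Background was the 95th percentile of receptor genes. A gene under background on 1 array has a bound on its fold, computed from the reference there. Genes as bright were those with a mean signal at or above the lowest quartile of the class.

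Named were the 6 highest and 6 lowest differences per class, members 2-fold apart, fixed lists of paralogs and roles, and up to 4 highest and 4 lowest per related list. Of the roles list, among others, *Rplp2*, *Rps27a*, *Rack1*, *Rps3*, *Rpl13a*, *Rpl10* and *Rpl26* were not analysed here. Members and lists were chosen with earlier results of these data known. Calculations used Python 3.11.15, numpy 2.4.6 and pandas 2.3.3, with plots in matplotlib 3.10.9, and were tested on simulated data. The alternatives were 3 scalings between arrays, other background percentiles, probe sets and symbols, subsets of members, the mean and a 1.5-fold threshold.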

Additional observations from a re-analysis of the deposited data

How the results depend on the processing

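The median differences of both classes kept their sign under every alternative run. The cytosolic median was 0.20 as deposited, 0.20 after centering or quantile normalization, 0.21 with the trend over signal removed, 0.19 without chromosomes 6 and 12, and 0.24 as a mean. Between 47 and 49 of 58 cytosolic members were higher in aged organoids under these scalings. The mitochondrial median lay between 0.04 and 0.06, and 0.01 as a mean. The count of cytosolic members 2-fold apart was 2, and it became 1 without chromosomes 6 and 12, 3 with the trend over signal removed (*Rps29* at 1.01) and 8 at a 1.5-fold threshold. That of mitochondrial members was 4, and it became 5 with the trend removed (*Mrpl19* at 1.01) and 15 at a 1.5-fold threshold. Of the 121 genes named, 29 were 2-fold apart as deposited, and these were so, in the same direction, under each scaling. Sign changed in 3 named genes with small differences. *Rpl22* became −0.03 after quantile normalization, *Mrps18a* −0.02 after it and −0.03 with the trend removed, and *Rpl3l*, under background, 0.16 with the trend removed. No paired analysis was possible because each group had 1 array. With 1 array per group no replicate could be left out, and the spread at bright signals, where most cytosolic members lie, was not measured.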

Other observations

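A few names near the symbol rule were measured but lie outside it, because they carry other endings. *Rpl31-ps12* was at 16.35 on the aged and 15.92 on the young array, *Rpl37rt* at 14.85 and 14.57, and *Rps27rt* at 11.99 and 11.93, and RefSeq lists each as protein-coding. *Rps27rt* is a copy of *Rps27* by name, and its difference of 0.06 stood beside −1.51 for *Rps27l* on the same chromosome 9. *Rps19bp1*, a partner of the Rps19 protein by name, was at 10.12 on the aged and 10.08 on the young array. These genes were chosen after their values were seen.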
